A study of Mus musculus with 16 samples.

Results

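The 4 genes described here carry butyrate and lactate across the membrane of caecal epithelial cells or support that carriage: Slc16a1, Slc16a3, Slc5a8 and Bsg, 4 of the 24091 genes of a mouse RNA table. They were taken by symbol for what they encode, and each symbol matched 1 row. The RNA came from caecal epithelium of C57BL/6 mice, an inbred strain, in 3 groups of 3 libraries. The first group received ampicillin, an antibiotic, and a gavage of tributyrin (Amp_Tributyrin). The second received ampicillin and a mock gavage (Amp_Mock). The third received vehicle and a mock gavage (Vehicle_Mock). All 3 groups had the sweetener Splenda at 10 g/L, ampicillin was given at 1 g/L for 7 days, the gavage was given on day 7, and tissue was taken 6 h later. The mock gavage was 25% glycerol, and tributyrin is an ester of glycerol that releases butyrate when lipases split it. No glycerol percentage is given for the tributyrin gavage, so tributyrin and a difference in glycerol cannot be told apart. The dose of tributyrin and the age and sex of the mice do not appear in the sources used here, nor is it stated whether a library was 1 animal or a pool.

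Bacteria of the caecum ferment fibre to butyrate, acetate and propionate, and colonocytes burn butyrate as a main fuel. Slc16a1 encodes MCT1, which moves butyrate, lactate, pyruvate or ketone bodies across the membrane together with a proton, in either direction. Slc16a3 encodes MCT4, a relative that exports lactate from cells with high glycolysis and is a known target of the hypoxia-inducible factor (HIF). Slc5a8 encodes SMCT1, which draws butyrate and other monocarboxylates into the cell with sodium at the luminal face of the colon. Bsg encodes basigin, also called CD147, a membrane glycoprotein that MCT1 and MCT4 need to reach the cell surface.

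All values below are TPM, a share of the library's RNA per transcript length made by the authors, so levels can be compared between genes. The 4 genes differed widely in level. Bsg ranked 137 to 151 among the 24091 genes across the 9 libraries, Slc16a1 497 to 861, Slc5a8 2566 to 5277 and Slc16a3 8709 to 12205. All 4 passed the filter of a mean of at least 1 TPM, as did 12155 genes in all. Differences between groups are given on the log2(TPM + 1) scale with their standard error (SE), and a gene was called at an adjusted p under 0.05 in limma over those 12155 genes. A difference on this scale understates the change of a low gene such as Slc16a3.

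The epithelial cell markers were high in each library, with 8 of 8 in the table and a summed level of 11163 to 12091 TPM in Amp_Tributyrin, 9919 to 10366 in Amp_Mock and 12102 to 13632 in Vehicle_Mock. For absorptive colonocyte markers the sums were 35810 to 36699, 36830 to 39169 and 38821 to 41158 TPM in the same order of groups. Of the 8 epithelial markers 5 fell in Amp_Mock against Vehicle_Mock, as did 4 of the 8 colonocyte markers, beside 10.2% of all genes tested. The part of these marker falls in the falls of Slc16a1 and Slc5a8 was not tested. Of the other intestinal markers tested, 2 of 7 for goblet cells (Muc2 and Spink4) and 2 of 5 for stem cells fell, and 0 rose. The goblet genes Tff3, Zg16 and Fcgbp had positive differences that were not called (log2 0.22, 0.37 and 0.05). Clca1 and Agr2 had negative differences that were not called either (log2 -0.68 and -0.43). Of the 4 small intestinal enterocyte genes tested, Alpi and Fabp6 fell and Fabp2 was not called. Apoa1 passed the filter only through Vehicle_Mock, where it is high, so no test of it is given. Among 5 endothelial genes only Pecam1 passed the filter, helped by its high Vehicle_Mock values, so no test is given. It had 0.511, 0.636 and 0.611 TPM in Amp_Mock and 3.53, 3.82 and 4.03 TPM in Vehicle_Mock. Of the others, Vwf averaged 0.292 and 0.320 TPM, Cldn5 0.0103 and 0.309, Kdr 0.0226 and 0.00952, and Cdh5 was at 0 in both. Vehicle_Mock replicate 2 stood apart in small intestinal genes, with 345 TPM of Fabp6 against 12.3 and 53.4 in the other vehicle libraries and 75.2 TPM of Apoa1 against 2.30 and 9.19. Without it the ampicillin differences of the transporter genes were -0.71 for Slc16a1, 1.90 for Slc16a3 and -0.93 for Slc5a8 (log2, limma adjusted p = 0.00108, 0.000129 and 0.00124), and -0.10 for Bsg (adjusted p = 0.249). In this RNA from many cells, fewer cells of a type and less RNA per cell cannot be told apart. The p-values measure the spread between these libraries, which may be technical.

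Both Slc16a1 and Slc16a3 have matches to the core sequence that HIF binds in the 250 bases before the transcript start of the RefSeq promoter table, and the windows are shown because these 2 genes moved in opposite directions in the comparisons that follow. Capitals mark ACGTG or GCGTG read on either strand, so that the reverse complements CACGT and CACGC count too. The sequences are from RefSeq, build GRCm38.p6, plus strand, 5′ to 3′, and 3 of the 4 genes were in that table. For Slc16a1 and Slc5a8 the transcript start is the first base of the gene's interval, whereas for Slc16a3 it is base 120949067 of chromosome 11, 583 bases into the interval, which begins at 120948484, so the Slc16a3 window lies inside the gene and before that one start.
Slc16a1, chr3:104638414-104638663: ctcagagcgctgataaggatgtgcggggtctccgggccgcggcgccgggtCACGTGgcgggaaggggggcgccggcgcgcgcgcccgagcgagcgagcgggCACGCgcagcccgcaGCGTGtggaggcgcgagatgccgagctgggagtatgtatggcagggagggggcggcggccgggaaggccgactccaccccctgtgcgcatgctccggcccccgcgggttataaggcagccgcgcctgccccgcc
Slc16a3, chr11:120948817-120949066: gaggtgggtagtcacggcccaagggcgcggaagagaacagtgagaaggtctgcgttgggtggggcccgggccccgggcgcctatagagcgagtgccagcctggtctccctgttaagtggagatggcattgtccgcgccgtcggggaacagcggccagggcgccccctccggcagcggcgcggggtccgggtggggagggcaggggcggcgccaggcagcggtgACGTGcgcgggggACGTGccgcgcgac
Slc5a8, chr10:88885742-88885991: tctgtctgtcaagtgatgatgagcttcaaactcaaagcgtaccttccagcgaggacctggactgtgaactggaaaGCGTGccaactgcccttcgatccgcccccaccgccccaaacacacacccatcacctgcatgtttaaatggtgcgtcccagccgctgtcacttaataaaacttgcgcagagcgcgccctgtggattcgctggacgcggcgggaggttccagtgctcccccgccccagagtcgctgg
The Slc16a1 window held 4 matches, 2 of them overlapping in 1 CACGTG, an E-box that reads the same on both strands. The Slc16a3 window held 2 matches, both ACGTG, beginning 27 and 14 bases before that transcript start. The Slc5a8 window held 1 match, GCGTG, 175 bases before the start. Such short matches are common, since 38.6% of 32851 promoter windows of the same length held at least 1, and 16.6% held ACGTG. The windows of Slc16a1, Slc16a3 and Slc5a8 had a GC content of 76.4%, 73.6% and 58.8%, against a median of 52.4% over all windows. The GC box GGGCGG occurred 1, 1 and 3 times, and was in 32.7% of windows. TATAAA, present in 12.4% of windows, a direct repeat of AGGTCA with 1 base between, in 0.0335%, and CAAAGTCCA, in 0.384%, were in none of the 3. A match describes letters and not binding, and the part of HIF in the values of these genes was not tested.

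**Figure D1:**
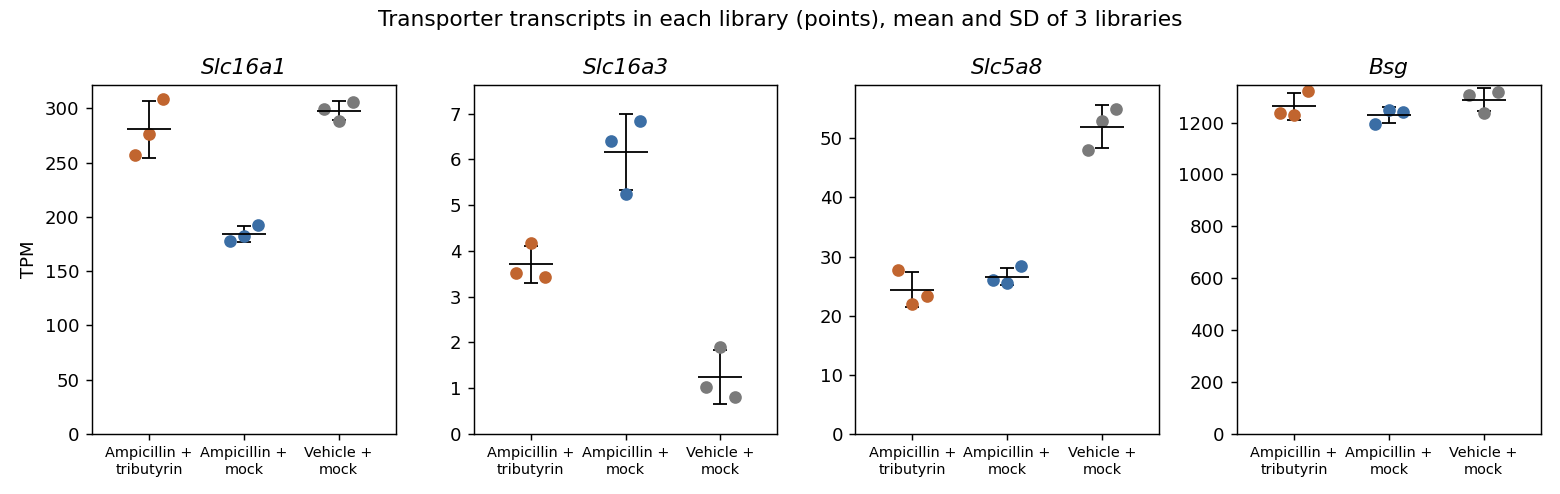
TPM (y axes, from 0, each gene on its own scale) of the 4 genes in ampicillin with tributyrin, ampicillin with mock gavage and vehicle with mock gavage, with a point per library and the mean and SD of 3 libraries. Slc16a1 was lowest in the ampicillin and mock libraries (178 to 193 TPM), Slc16a3 was highest in them, Slc5a8 was low in both ampicillin groups, and the Bsg groups overlap.

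The first comparison asks what ampicillin did to these transcripts with a mock gavage. Slc16a1 and Slc5a8 fell in Amp_Mock, Slc16a3 rose, and Bsg was not called. So 3 of the 4 genes passed the test, against 21.3% of all genes tested, and the same 3 had groups of libraries that did not overlap, against 40.8% of all genes. A fall, as of Slc16a1 and Slc5a8, was called for 10.2% of all genes and a rise for 11.0%. The median difference over all genes was 0.02.

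Slc16a1 (gene ID 20501, chromosome 3, 104638664 to 104658462) had 178, 183 and 193 TPM in Amp_Mock, against 299, 289 and 306 TPM in Vehicle_Mock. Every Amp_Mock library was below every Vehicle_Mock library. The means were 184 ± 7.50 and 298 ± 8.73 TPM (SD, n = 3 each), a ratio of 0.618 and a log2 difference of -0.69 ± 0.068 (SE; limma adjusted p = 0.000281).

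Slc5a8 (gene ID 216225, chromosome 10, 88885992 to 88929515) had 26.1, 25.5 and 28.3 TPM in Amp_Mock, against 48.0, 53.0 and 55.1 TPM in Vehicle_Mock. This sodium-coupled carrier was thus lower in each ampicillin library, at 0.512 of the vehicle mean. Its log2 difference was -0.94 ± 0.090 (SE; limma adjusted p = 0.000226).

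Slc16a3 (gene ID 80879, chromosome 11, 120948484 to 120959000) had 6.41, 5.24 and 6.85 TPM in Amp_Mock, against 1.03, 1.90 and 0.796 TPM in Vehicle_Mock. The lactate exporter was higher in each ampicillin library, with a ratio of the means of 4.97. The log2 difference was 1.70 ± 0.17 (SE; limma adjusted p = 0.000334), and 2.30 with a pseudocount of 0.1 in place of 1.

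Bsg (gene ID 12215, chromosome 10, 79704358 to 79711979) had 1196, 1249 and 1243 TPM in Amp_Mock, against 1307, 1237 and 1319 TPM in Vehicle_Mock. The libraries overlapped, and the log2 difference was -0.07, with a 95% interval of -0.18 to 0.045 (limma adjusted p = 0.388). That interval holds no change as large as those of the other 3 genes.

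The second comparison sets the tributyrin gavage against the mock gavage in mice that had all received ampicillin. Slc16a1 rose in Amp_Tributyrin against Amp_Mock and Slc16a3 fell, while Slc5a8 and Bsg were not called. The 2 called genes stand against 23.2% of all genes called, and those whose libraries did not overlap, also Slc16a1 and Slc16a3, against 42.6%. A rise was called for 15.6% of all genes and a fall for 7.54%. Of all called genes 67.5% were higher in Amp_Tributyrin, but 43.4% after median ratio scaling and 47.1% after quantile normalization. The directions of Slc16a1 and Slc16a3 were the same under both.

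Slc16a1 had 257, 276 and 309 TPM in Amp_Tributyrin, against the 178 to 193 TPM of Amp_Mock, so that each tributyrin library was above each mock library. The mean of 281 ± 26.0 TPM (SD, n = 3) was 1.52 times that of Amp_Mock, a log2 difference of 0.60 ± 0.068 (SE; limma adjusted p = 0.00100). The erythroid markers moved the same way, with 4 of 6 listed genes in the table, the 2 tested (Hba-a2 and Hbb-bs, of haemoglobin) higher, and sums of 94.4 to 134 TPM in Amp_Tributyrin, 13.4 to 36.6 in Amp_Mock and 8.35 to 25.4 in Vehicle_Mock. The 7 T lymphocyte markers in the table had sums of 25.5 to 44.4 TPM in Amp_Tributyrin, 11.9 to 20.4 in Amp_Mock and 17.9 to 20.4 in Vehicle_Mock. Of these, Lck rose (log2 0.69, limma adjusted p = 0.0231), while Gzma and Cd8a averaged over 1 TPM only in Amp_Tributyrin, the group that took them past the filter. Of the 8 epithelial markers 2 rose, and of the 8 colonocyte markers 2 rose and 1 fell. These counts stand beside 15.6% higher and 7.54% lower over all genes. The colonocyte marker Car4, a carbonic anhydrase, was lowest in Amp_Mock as Slc16a1 was (log2 0.71, limma adjusted p = 0.00176). Slc20a1 rose too (log2 0.56, limma adjusted p = 0.0272), while Guca2a fell (log2 -0.23, limma adjusted p = 0.0174). Car1, Aqp8, Slc26a3, Krt20 and Ceacam1 were not called (limma adjusted p 0.134 to 0.398). Pecam1 had 1.10, 1.66 and 1.38 TPM in Amp_Tributyrin, above its 0.511 to 0.636 TPM in Amp_Mock. Red cells and activated T cells also carry MCT1, and the part of these cell types in the Slc16a1 values was not tested.

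Slc16a3 had 3.51, 4.16 and 3.44 TPM in Amp_Tributyrin, all below the 5.24 to 6.85 TPM of Amp_Mock. The mean of 3.70 ± 0.400 TPM (SD, n = 3) was 0.600 of the Amp_Mock mean, a log2 difference of -0.60 ± 0.17 (SE; limma adjusted p = 0.0386). This call rests near the threshold. It was kept under 8 of 19 alternatives, and it was lost without any 1 of the 6 Amp_Mock and Amp_Tributyrin libraries (adjusted p 0.0533 to 0.111, log2 -0.70 to -0.54) or without Vehicle_Mock replicate 1 (adjusted p = 0.0516). With the replicate number as a block the adjusted p was 0.0544.

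Slc5a8 had 27.7, 22.0 and 23.4 TPM in Amp_Tributyrin, against 25.5 to 28.3 TPM in Amp_Mock. The libraries overlapped, with a log2 difference of -0.13 and a 95% interval of -0.33 to 0.078 (limma adjusted p = 0.339). The interval holds neither a rise of the size seen for Slc16a1 nor the size of its own fall with ampicillin. Bsg had 1237, 1229 and 1322 TPM in Amp_Tributyrin, against 1196 to 1249 TPM in Amp_Mock. Its log2 difference was 0.04, with a 95% interval of -0.074 to 0.15 (limma adjusted p = 0.614), and -0.04 after median ratio scaling.

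The third comparison sets ampicillin with tributyrin against vehicle. It shares its libraries with the other two, so it is a restatement of the same values and not a further test of them. Slc16a1 was not called, with a log2 difference of -0.09 and a 95% interval of -0.25 to 0.066 (limma adjusted p = 0.353), and its libraries overlapped those of Vehicle_Mock. Slc5a8 stayed lower, at 0.469 of the vehicle mean and a log2 difference of -1.07 ± 0.090 (SE; limma adjusted p = 0.000198). Slc16a3 was higher at 2.98 times, a log2 difference of 1.10 ± 0.17 (SE; limma adjusted p = 0.00308), so that its Amp_Tributyrin libraries lay between the other groups. Bsg was again not called (log2 -0.03, 95% interval -0.14 to 0.083, limma adjusted p = 0.689). The 2 called genes, whose libraries also did not overlap, stand against 28.3% of all genes called (19.1% higher and 9.21% lower) and 41.7% without overlap. Of those calls 67.5% were higher in Amp_Tributyrin, with 41.1% after median ratio scaling and 50.3% after quantile normalization.

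**Figure D2:**
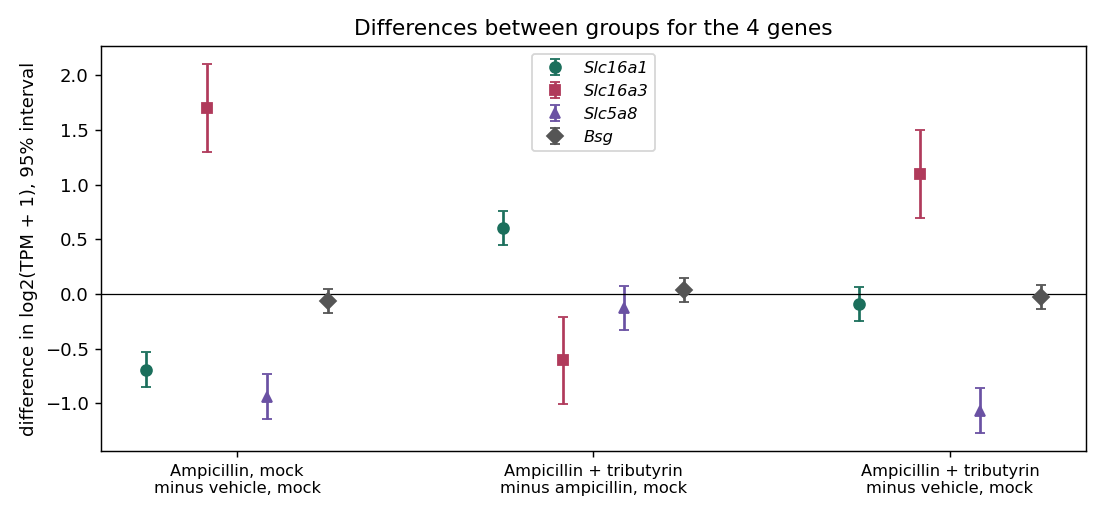
Difference in log2(TPM + 1) (y axis) with its 95% interval for each of the 4 genes in the 3 comparisons (x axis). The Slc16a1 and Slc16a3 values have opposite signs in the first 2 comparisons, that of Slc5a8 is near -1 in the first and the third, and the Bsg intervals all include 0.

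A ratio of 2 TPM values within a library does not change when the whole library is multiplied by a factor. The tests of these proportions use log2(TPM + 1), which can still move with the scaling, mainly for a low gene such as Slc16a3. Slc16a3 made up 1.35%, 1.48% and 1.10% of the summed Slc16a1 and Slc16a3 transcripts in Amp_Tributyrin, 3.48%, 2.79% and 3.43% in Amp_Mock, and 0.341%, 0.653% and 0.259% in Vehicle_Mock. The 3 groups did not overlap, and Slc16a1 remained by far the more abundant of the pair in every library. Relative to Slc16a1, Slc16a3 rose by 2.39 ± 0.20 on the log2 scale in Amp_Mock against Vehicle_Mock (SE; limma adjusted p = 1.67e-05). In Amp_Tributyrin against Amp_Mock it fell by 1.21 ± 0.20 (SE; limma adjusted p = 0.000574). Since Slc16a1 itself moved, 90.8% and 82.3% of all genes were called relative to it in these 2 comparisons, so the calls tell little about any 1 partner.

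Slc5a8 amounted to 10.8%, 7.98% and 7.57% of the Slc16a1 level in Amp_Tributyrin, 14.7%, 13.9% and 14.7% in Amp_Mock, and 16.0%, 18.3% and 18.0% in Vehicle_Mock. The proportion was lowest with tributyrin, where Slc16a1 was high and Slc5a8 low. The log2 difference of this proportion was -0.73 ± 0.13 in Amp_Tributyrin against Amp_Mock (SE; limma adjusted p = 0.000691). In Amp_Tributyrin against Vehicle_Mock, where 18.4% of all genes were called relative to Slc16a1, it was -0.98 ± 0.13 (SE; limma adjusted p = 0.00129). In Amp_Mock against Vehicle_Mock it was -0.25, with a 95% interval of -0.53 to 0.032 (limma adjusted p = 0.0829), so a difference between the 2 falls was not called there. It was called with array weights, with only the 2 groups compared and without Amp_Tributyrin replicate 1, at adjusted p 0.00675, 0.00919 and 0.0101.

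The Bsg level was 4.81, 4.45 and 4.28 times that of Slc16a1 in Amp_Tributyrin, 6.72, 6.84 and 6.45 times in Amp_Mock, and 4.37, 4.28 and 4.31 times in Vehicle_Mock. The chaperone thus outnumbered its main partner at the RNA level in every library, and most in Amp_Mock. Against Bsg, a scale on which 20.2%, 15.5% and 22.9% of all genes were called in the 3 comparisons, Slc16a3 was higher in Amp_Mock than in Vehicle_Mock (log2 1.77 ± 0.20, SE, limma adjusted p = 0.000550). Slc5a8 was lower on this scale in the same comparison (log2 -0.87 ± 0.10, SE, limma adjusted p = 0.000628). The fall of Slc16a3 with tributyrin relative to Bsg was not called (log2 -0.64, 95% interval -1.10 to -0.19, limma adjusted p = 0.0620). It was called without Vehicle_Mock replicate 2 (adjusted p = 0.0165).

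**Figure D3:**
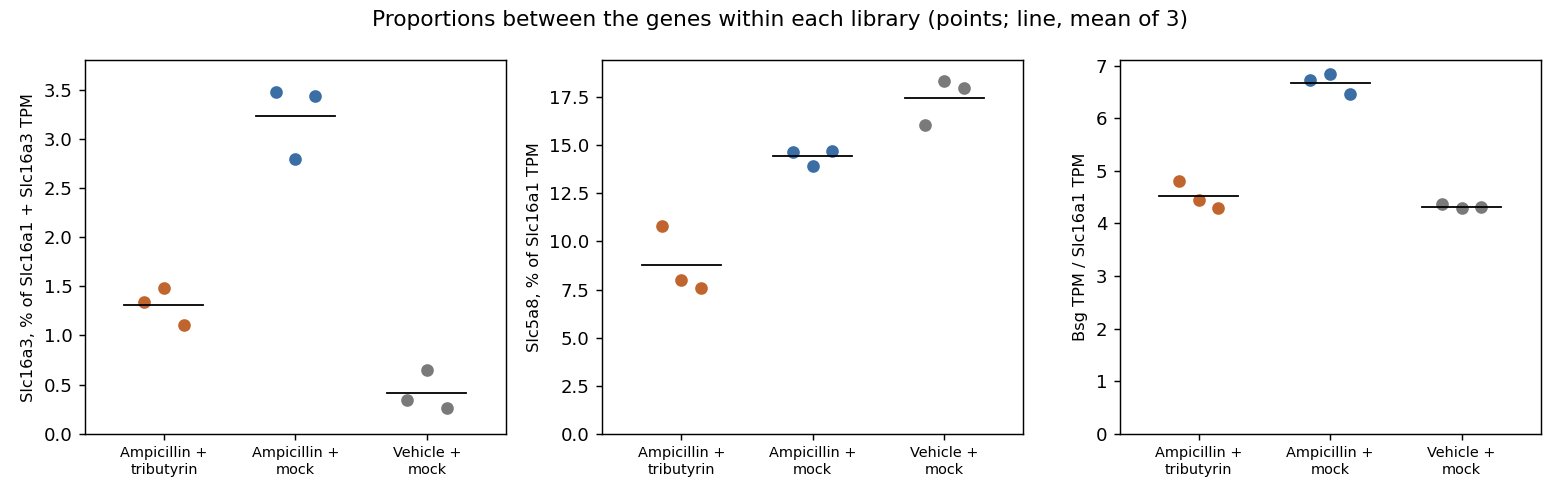
Proportions between the 4 genes within each library, as percentages (left and middle y axes) or a ratio of TPM (right y axis), for ampicillin with tributyrin, ampicillin with mock gavage and vehicle with mock gavage; points are libraries and lines are means of 3. The share of Slc16a3 separates the 3 groups, Slc5a8 relative to Slc16a1 is lowest with tributyrin, and Bsg relative to Slc16a1 is highest in ampicillin with mock gavage (6.45 to 6.84).

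Reads of Slc16a3 may be mixed with those of a neighbour. Its interval overlaps that of Csnk1d, a casein kinase gene, by 1292 bases (chromosome 11, 120957709 to 120959000), and nothing in the sources used here gives the strand setting of the authors' counting. Csnk1d had 70.7, 72.4 and 65.3 TPM in Amp_Tributyrin, 60.7, 61.0 and 58.5 TPM in Amp_Mock, and 66.4, 68.6 and 69.2 TPM in Vehicle_Mock. It moved opposite to Slc16a3, with a log2 difference of -0.18 in Amp_Mock against Vehicle_Mock (limma adjusted p = 0.0345) and 0.21 in Amp_Tributyrin against Amp_Mock (limma adjusted p = 0.0192). Slc16a3 is also known from myeloid cells. The summed myeloid markers were 4.54 to 5.60 TPM in Amp_Tributyrin, 3.52 to 6.24 in Amp_Mock and 3.41 to 3.79 in Vehicle_Mock, with S100a8 at 0 in every library. Of the 2 myeloid markers tested, Lyz2 averaged 1.64, 1.80 and 1.43 TPM and Cd68 2.22, 1.87 and 1.65 TPM in the same order of groups. In Amp_Mock against Vehicle_Mock neither of these low genes was called (limma adjusted p = 0.802 and 0.541). The part of Csnk1d reads or of myeloid cells in the Slc16a3 values was not tested.

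Within the wider family of 16 monocarboxylate carriers, the 14 SLC16 genes and the sodium-coupled Slc5a8 and Slc5a12, Slc16a1 made up 55.1% to 67.9% of the summed TPM of a library. In each group the order of mean levels was Slc16a1, Slc16a5, Slc5a8, Slc16a9 and Slc16a13, and no neighbours in it overlapped. Slc16a3 was in place 7 in Amp_Tributyrin (3.70 TPM), where it overlapped Slc16a10 (4.71 TPM) and Slc16a6 (3.32 TPM), in place 6 in Amp_Mock (6.17 TPM) and in place 9 in Vehicle_Mock (1.24 TPM). Slc16a7, which encodes the high-affinity carrier MCT2, stayed at 0.446 to 1.09 TPM in all libraries and was not tested. Slc5a12, the low-affinity sodium-coupled relative, had at most 0.0401 TPM in any library.

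Of the 13 other family members 6 were tested, and 0 rose (1, Slc16a6, after quantile normalization) and 3 fell in Amp_Mock against Vehicle_Mock, with a median of -0.30, beside 11.0% higher, 10.2% lower and a median of 0.02 over all genes. Slc16a9, which in humans is linked to carnitine levels, had 20.0, 16.9 and 16.9 TPM in Amp_Tributyrin, 16.7, 17.3 and 16.5 in Amp_Mock, and 30.5, 30.9 and 32.8 in Vehicle_Mock. Like Slc5a8 it was low in both ampicillin groups, with a log2 difference of -0.86 ± 0.069 in Amp_Mock (SE; limma adjusted p = 0.000101) and 0.08 with tributyrin against mock gavage (limma adjusted p = 0.431). Slc16a13 had 9.89, 11.0 and 9.82 TPM in Amp_Tributyrin, 7.06, 7.65 and 7.72 in Amp_Mock, and 10.3, 11.5 and 10.9 in Vehicle_Mock. Like Slc16a1 it was lowest in Amp_Mock, with log2 differences of -0.49 ± 0.065 against vehicle (SE; limma adjusted p = 0.00125) and 0.41 ± 0.065 with tributyrin (SE; limma adjusted p = 0.00388).

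Slc16a11, whose human counterpart is linked to type 2 diabetes risk, lies 374 bases before Slc16a13 on chromosome 11 (70213695 to 70216414, next to 70216789 to 70222740). It had 2.84, 2.82 and 2.25 TPM in Amp_Tributyrin, 1.98, 1.63 and 1.53 in Amp_Mock, and 4.29, 4.63 and 4.64 in Vehicle_Mock. It fell in Amp_Mock (log2 -1.03 ± 0.098, SE, limma adjusted p = 0.000222) and rose with tributyrin (0.42 ± 0.098, SE, limma adjusted p = 0.0170), a call lost after quantile normalization (adjusted p = 0.0819). Against vehicle it stayed lower with tributyrin (log2 -0.61, limma adjusted p = 0.00324). Slc16a5 was not called in the 3 comparisons (limma adjusted p = 0.182, 0.868 and 0.210), but was lower in Amp_Tributyrin than in Vehicle_Mock after median ratio scaling (log2 -0.20, adjusted p = 0.0447).

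**Figure D4:**
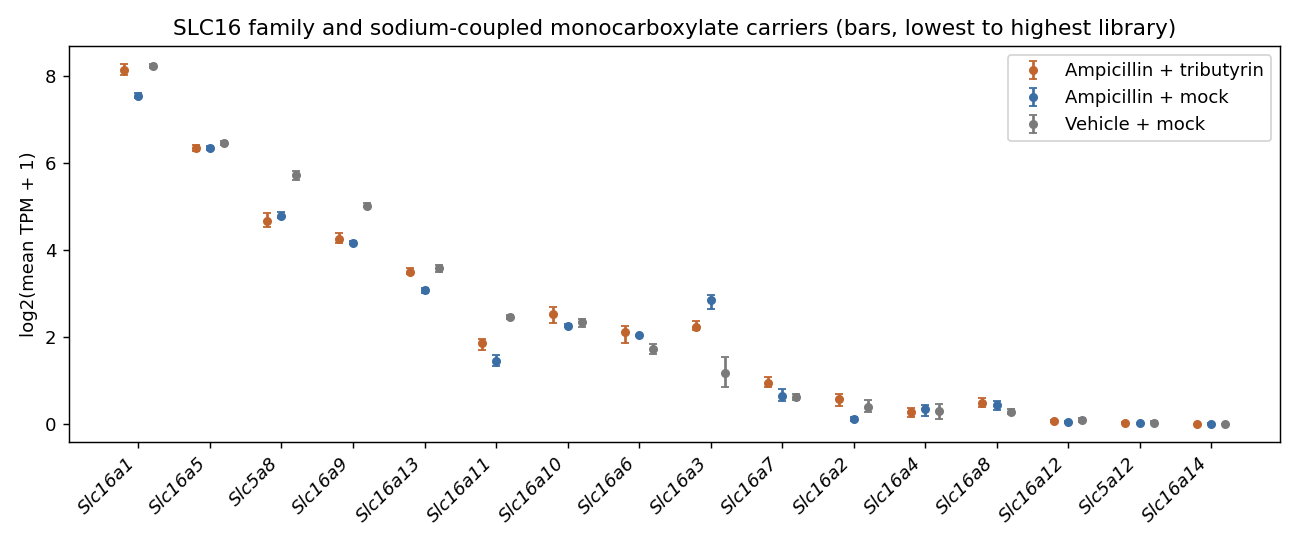
Mean level as log2(TPM + 1) (y axis) of the 16 monocarboxylate carriers, ordered by level in vehicle libraries (x axis), for ampicillin with tributyrin, ampicillin with mock gavage and vehicle with mock gavage; bars run from the lowest to the highest of 3 libraries. Slc16a1 leads in all groups, and Slc16a3 is the carrier that stands higher in both ampicillin groups than in vehicle with the widest gap (6.17 and 3.70 TPM against 1.24 TPM).

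The partners of basigin were compared next. Emb, which encodes embigin, another glycoprotein known to bring monocarboxylate carriers to the surface, had 1.45, 2.41 and 1.33 TPM in Amp_Tributyrin, 0.664, 0.569 and 1.06 TPM in Amp_Mock, and 0.544, 0.733 and 0.965 TPM in Vehicle_Mock. It was far below Bsg in each library, and the Amp_Tributyrin libraries were the highest. Its mean over all libraries passed the 1 TPM filter only through that group, so no test of its rise is given. Nptn, a relative of basigin, averaged 102 TPM in Amp_Tributyrin, 96.4 TPM in Amp_Mock and 92.8 TPM in Vehicle_Mock. It was not called in the 3 comparisons (limma adjusted p = 0.535, 0.357 and 0.111). Ppia, which encodes cyclophilin A, a ligand of basigin, rose in Amp_Mock against Vehicle_Mock by 0.22 (log2, limma adjusted p = 0.0264), a call lost after median ratio scaling (adjusted p = 0.0522) and quantile normalization (adjusted p = 0.183).

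Receptors that sense the same molecules were mostly too low to test, since 6 of the 8 listed were in the table and only Ffar2 passed the filter. Ffar2, a receptor for acetate, propionate and butyrate, had 2.33, 2.44 and 2.48 TPM in Amp_Tributyrin, 1.36, 1.69 and 1.28 TPM in Amp_Mock, and 2.0, 2.83 and 2.05 TPM in Vehicle_Mock. It was lowest in Amp_Mock, as Slc16a1 was, with log2 differences of -0.43 ± 0.12 against vehicle (SE; limma adjusted p = 0.0324) and 0.49 ± 0.12 with tributyrin (SE; limma adjusted p = 0.0189, but 0.0901 after quantile normalization). Hcar2, a butyrate and ketone body receptor, averaged 0.175 TPM in Amp_Tributyrin, 0.214 TPM in Amp_Mock and 0.169 TPM in Vehicle_Mock. Of other carriers linked to short-chain fatty acids, Abcg2, an efflux pump, was not called in the 3 comparisons (limma adjusted p = 0.324, 0.567 and 0.106), but was lower in Amp_Tributyrin than in Vehicle_Mock after median ratio scaling (log2 -0.31, adjusted p = 0.0239). Slc26a3, a chloride and bicarbonate exchanger, was higher in that comparison (log2 0.31, limma adjusted p = 0.0396, but 0.144 after median ratio scaling).

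Of a list of genes that activate and oxidize butyrate and other short-chain fatty acids inside the cell, 7 of 12 were tested. It includes Acss1 and Acss2, which activate acetate. In Amp_Mock against Vehicle_Mock 0 rose and 4 fell (Acsm3, Acss1, Acads and Acss2), beside 11.0% higher and 10.2% lower over all genes. The median of the list was -0.21 against 0.02 over all genes. With tributyrin against mock gavage 2 rose (Acsm3 and Acss2) and 0 fell, beside 15.6% higher and 7.54% lower over all genes. The median was then 0.09 against 0.05 over all genes. After median ratio scaling 1 gene, Echs1, fell as well and the median was 0.0074, and Echs1 also fell after quantile normalization and without short RNA and mitochondrial entries. Acsm3, which attaches coenzyme A to medium and short fatty acids, had 16.1, 17.7 and 14.1 TPM in Amp_Tributyrin, 10.5, 11.8 and 9.57 TPM in Amp_Mock, and 19.5, 22.2 and 16.5 TPM in Vehicle_Mock. It fell in Amp_Mock (log2 -0.80 ± 0.12, SE, limma adjusted p = 0.00220) and rose with tributyrin (0.54 ± 0.12, SE, limma adjusted p = 0.0147). Acads, the short-chain acyl-CoA dehydrogenase that oxidizes butyryl-CoA, fell in Amp_Mock (log2 -0.34, limma adjusted p = 0.00189) and was not called with tributyrin (0.07, limma adjusted p = 0.315).

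On the lactate side, 13 of 15 genes of lactate and pyruvate conversion were tested, of which 6 rose and 1 fell in Amp_Mock against Vehicle_Mock, with a median of 0.15 and beside 11.0% higher and 10.2% lower over all genes. Of the same 13, 2 rose and 3 fell in Amp_Tributyrin against Amp_Mock (2 and 6 after median ratio scaling, 2 and 5 after quantile normalization), with a median of -0.09 and beside 15.6% higher and 7.54% lower over all genes. Ldha, the subunit of lactate dehydrogenase that favours lactate, had 1538, 1520 and 1535 TPM in Amp_Tributyrin, 1996, 1851 and 2045 TPM in Amp_Mock, and 1243, 1216 and 1212 TPM in Vehicle_Mock. It was highest in Amp_Mock and intermediate with tributyrin, in the same order as Slc16a3, with log2 differences of 0.68 ± 0.048 in Amp_Mock (SE; limma adjusted p = 4.92e-05) and -0.36 ± 0.048 with tributyrin (SE; limma adjusted p = 0.00176). Ldhb, the other subunit, averaged 0.593 TPM in Amp_Tributyrin, 0.467 TPM in Amp_Mock and 0.356 TPM in Vehicle_Mock and was not tested. Pdk1, a kinase that inhibits pyruvate dehydrogenase, fell with tributyrin (log2 -0.45, limma adjusted p = 0.00158), while its relative Pdk4 rose (0.92 ± 0.20, SE, limma adjusted p = 0.0140).

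Genes of glycolysis and glucose uptake, 14 of 14 tested, rose in 11 cases and fell in 1 in Amp_Mock against Vehicle_Mock, with a median of 0.40 against 0.02 over all genes. With tributyrin 1 rose and 4 fell, with a median of -0.13 against 0.05. Over all genes 11.0% were higher and 10.2% lower in the first of these comparisons, and 15.6% and 7.54% in the second. In Amp_Tributyrin against Vehicle_Mock 11 were higher (9 after median ratio scaling or quantile normalization) and 1 lower. The median there was 0.36 against 0.08, beside 19.1% higher and 9.21% lower over all genes. Hk2, the hexokinase that starts glycolysis, had 39.2, 33.5 and 34.1 TPM in Amp_Tributyrin, 47.6, 50.3 and 64.4 TPM in Amp_Mock, and 23.3, 24.4 and 23.8 TPM in Vehicle_Mock. The groups did not overlap, with log2 differences of 1.14 ± 0.11 in Amp_Mock (SE; limma adjusted p = 0.000228) and -0.58 ± 0.11 with tributyrin (SE; limma adjusted p = 0.00731). Pfkl, a phosphofructokinase subunit, was the gene that fell in Amp_Mock (log2 -0.42, limma adjusted p = 0.00126). This list, like the other related lists, was chosen with earlier results of these data known, so its counts describe and do not test.

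The list of HIF targets, with 14 of the 15 in the table tested and Slc16a3 not among them, rose in 12 cases in Amp_Mock against Vehicle_Mock with 0 falls and a median of 0.86 against 0.02 over all genes. With tributyrin 1 rose and 6 fell, with a median of -0.21 against 0.05. The shares over all genes were again 11.0% higher and 10.2% lower, and with tributyrin 15.6% and 7.54%. In Amp_Tributyrin against Vehicle_Mock 11 were higher (10 after median ratio scaling or quantile normalization) and 0 lower. The median there was 0.54 against 0.08, beside 19.1% higher and 9.21% lower over all genes. Ak4, a mitochondrial adenylate kinase, had 18.3, 16.7 and 22.4 TPM in Amp_Tributyrin, 28.8, 31.2 and 33.6 TPM in Amp_Mock, and 2.78, 2.02 and 3.94 TPM in Vehicle_Mock, an order of groups like that of Slc16a3. Its log2 differences were 3.07 ± 0.17 in Amp_Mock (SE; limma adjusted p = 1.70e-05) and -0.68 ± 0.17 with tributyrin (SE; limma adjusted p = 0.0232). Egln3, a prolyl hydroxylase that marks HIF for destruction, had log2 differences of 1.27 ± 0.092 (SE; limma adjusted p = 5.71e-05) and -0.72 ± 0.092 (SE; limma adjusted p = 0.00150) in the same comparisons. Adm, the adrenomedullin precursor, was the target that rose with tributyrin (log2 0.43, limma adjusted p = 0.0255). This list too was chosen with earlier results of these data known, and the part of HIF in the Slc16a3 values was not tested. Of the 3 sodium pump genes, which keep the gradient that SMCT1 uses, Atp1b1 was called in Amp_Mock against Vehicle_Mock (log2 0.20, limma adjusted p = 0.0342, but 0.0788 after median ratio scaling).

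**Figure D5:**
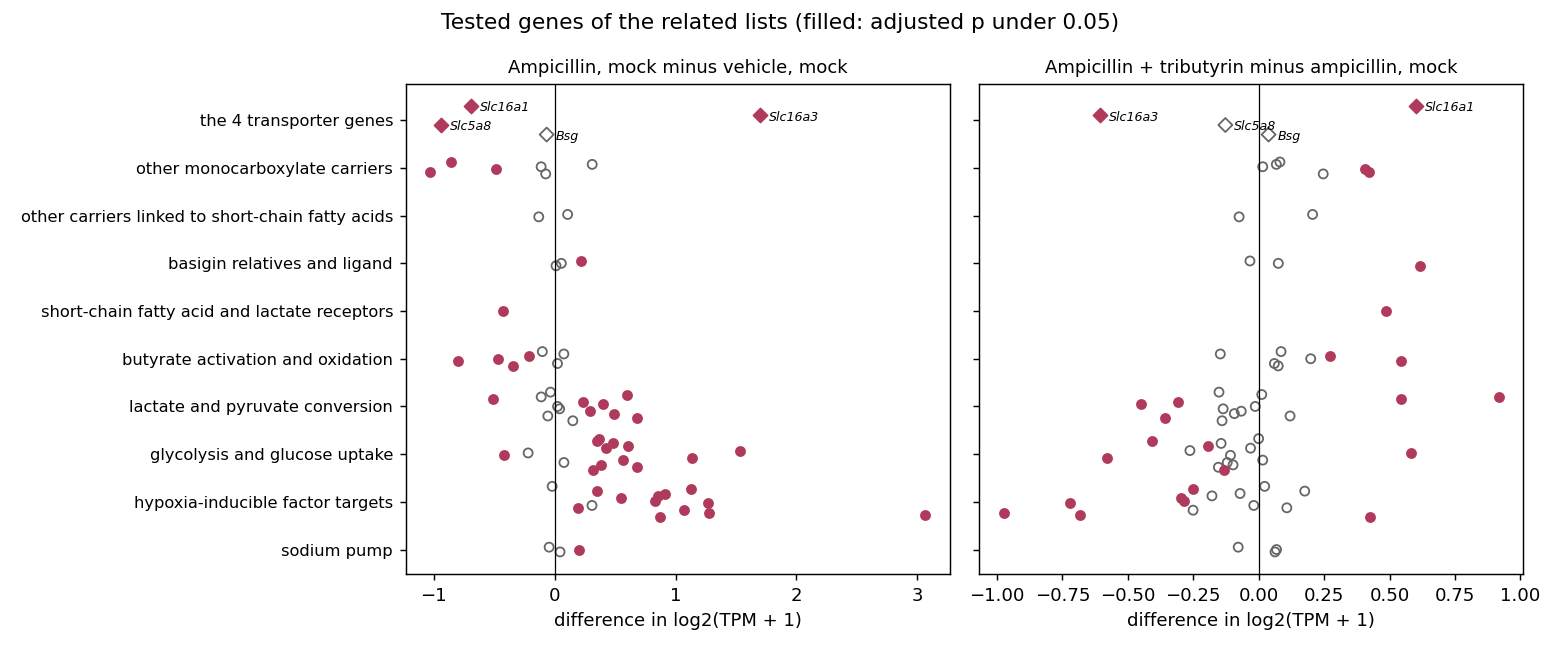
Difference in log2(TPM + 1) (x axes) for ampicillin with mock gavage minus vehicle (left) and for tributyrin minus mock gavage within ampicillin (right), with the 4 transporter genes as diamonds and each tested gene of the related lists as a circle (y axis); filled symbols have an adjusted p under 0.05. The HIF target and glycolysis circles lie mostly right of 0 on the left (12 of 14 and 11 of 14 higher, beside 11.0% of all genes), where Slc16a3 also lies. The lists were chosen with earlier results of these data known.

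As a description over 9 libraries that share the same 3 groups, and with no test, the levels of Slc16a1 and Slc16a3 ran opposite to each other (Pearson r = -0.80 on log2(TPM + 1)), as did those of Slc16a3 and Slc5a8 (r = -0.84). Slc16a1 and Slc5a8 were less alike (r = 0.47). Among 11086 genes compared, those most like Slc16a1 were Bex1 (r = 0.990), Urah (0.990), Gars (0.987), Mapk13 (0.986) and Blvrb (0.986). Bex1 had 16.0, 16.7 and 19.1 TPM in Amp_Tributyrin, 4.62, 5.62 and 5.73 TPM in Amp_Mock, and 20.3, 17.6 and 21.0 TPM in Vehicle_Mock, the same order as Slc16a1. Those most like Slc16a3 were the glycolytic enolase gene Eno1 (r = 0.981), the glycerol kinase gene Gk (0.981), Ptger3 (0.980), Gsn (0.976) and Foxn2 (0.975). Those most like Slc5a8 were Hpcal1 (r = 0.991), Ces2a (0.983), Slc35d1 (0.981), Pon2 (0.979) and B4galnt2 (0.979). The nearest to Bsg, Trappc6a, Sart1 and Srp14, reached r = 0.962, with B3gat3 at 0.961 and Isoc2a at 0.956.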

How the data were processed

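RNA of 9 libraries in 3 groups was used, with groups and replicate numbers from the sample titles. The other 7 samples of the series, chromatin immunoprecipitations and an input, were left out. DTT and EDTA and then Dispase released the cells, and NEBNext Ultra II kits made the libraries, per the labels' protocols. The deposited values are TPM per gene, made by the authors. The submitters' processing notes name the build mm10 and the tools Salmon 0.8.2 and DESeq2 1.20.0, with no role stated, and no source used here gives the annotation or strand setting. Each library sums to 999833 to 999866 TPM, which keeps no depth, so neither a counting interval nor a count model was used. TPM is relative, so a rise in abundant transcripts lowers the others.

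Genes with a mean of at least 1 TPM (12155; 11936 left out) were fitted as log2(TPM + 1) in limma 3.58.1 under R 4.3.3, with 1 mean per group, 6 residual degrees of freedom, a variance trend and two-sided Benjamini-Hochberg adjusted p-values over all genes. Proportions were tested in the same fit after subtracting the log2(TPM + 1) of Slc16a1 or Bsg from every other gene (12154 genes). The scripts were tested on simulated data. Alternatives were other pseudocounts, filters, scalings, weights, variance trend, sample sets, a replicate block, and each library left out. The deviations of same-numbered libraries correlated at most weakly (r -0.05 to 0.108), so numbers were not treated as pairs in the main fit. Positions and gene IDs are from RefSeq, GRCm38.p6, the build named mm10, and 24045 of 24091 IDs matched. Named genes are the 4 members, up to 4 called genes of each related list by size of change, some key genes whatever their values (Emb, Slc16a7, Slc5a12, Ldha, Ldhb, Acsm3, Ffar2, Hcar2 and Abcg2), and the 5 genes most correlated with each member, leaving out predicted genes and short RNA. Other family members, the neighbour Csnk1d, the cell markers named singly, Echs1, Nptn, and which called list genes are described, were chosen after values were seen. The members and lists were chosen with earlier results of these data known. Python 3.11.15 with matplotlib 3.10.9 drew the figures.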

Additional observations from a re-analysis of the deposited data

How the results depend on the processing

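Of 591 values of 30 results under 20 alternatives, 567 kept their side of the threshold (for counts of genes, stayed within 1.5 times), and 0 called values changed sign. Bsg in Amp_Tributyrin against Amp_Mock, called under none of them, turned to -0.04 after median ratio scaling. The fall of Slc16a3 in Amp_Tributyrin against Amp_Mock lost its call with a pseudocount of 0.1 (log2 -0.72, adjusted p = 0.0822) or 0.5 (-0.66, 0.0548), with no filter (-0.60, 0.0622) and with the replicate block (-0.60, 0.0544). Leaving out 1 library gave -0.70 to -0.54 (adjusted p 0.00943 to 0.111). A minimum of 5 TPM leaves Slc16a3 out. Slc16a3 relative to Bsg in the same comparison gained a call with quantile normalization (-0.72), without short RNA and mitochondrial entries (-0.64), with array weights (-0.54) and with only the 2 groups compared (-0.64), and ranged over -0.75 to -0.57 with 1 library left out. Slc5a8 relative to Slc16a1 in Amp_Mock against Vehicle_Mock gained a call with array weights (-0.26) and with only the 2 groups compared (-0.25), and ranged over -0.31 to -0.21. The causes were not tested.

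Genes called in Amp_Tributyrin against Amp_Mock were 2819, with 4271 under array weights and 1587 to 3011 with 1 library left out (1756 without Amp_Mock replicate 1, 1681 without Amp_Mock replicate 2 and 1587 without Amp_Tributyrin replicate 2). In Amp_Tributyrin against Vehicle_Mock they were 3444, with 2093 to 3786 (2093 without Amp_Tributyrin replicate 2). Over the 9 same-numbered pairs the correlation of deviations was -0.05 to 0.108, and a library correlated best with its own number in 10 of 18 cases. With the replicate block the counts were 2707 in Amp_Mock against Vehicle_Mock, 3009 in Amp_Tributyrin against Amp_Mock and 3569 in Amp_Tributyrin against Vehicle_Mock, and the block changed no call of the 4 genes or their proportions other than that of Slc16a3 above. Depth is unknown, so how far counting limits Slc16a3, the lowest of the 4 genes, could not be told.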
